A study of Mus musculus with 14 samples.

Results

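P5 pontine astrocytes are the cells of the 2 P5 pontine nuclei (PN) libraries that carried the RNA of astrocytes rather than of the Atoh1-lineage neurons the libraries were made to hold. They were chosen by raw counts of unique molecular identifiers (UMIs, each an RNA molecule counted once) per cell. A cell needed at least 5 UMIs of Aqp4, at least 5 of Slc1a3, at most 6 of Mapt, at most 2 of C1qa and C1qb together and 0 of Pdgfra, with at least 1000 genes detected and under 10% of UMIs from mitochondrial (mt-) genes. The rule took 945 of 17908 kept cells at P5, 605 of 11300 in library 1 and 340 of 6608 in library 2, out of 122658 kept cells in all 14 libraries of the series. The P5 pups were control mice of the genotype Atoh1 Cre/+; Rosa lsl-tdTomato/+ on the C57BL/6J strain. Their PN were microdissected and pooled over several pups for each library, and TdTomato-positive, DAPI-negative cells were sorted and sequenced with the 10x Genomics 3′ kit. The cells they are compared with met the same rule in 3 E18.5 control libraries of the same genotype and strain, each made from the whole hindbrain of 1 embryo. In both groups Cre is knocked into the Atoh1 locus, so the controls carry a single intact Atoh1 allele, and the label marks every cell whose ancestors expressed Cre, whatever it became. The labels give the cell type of all libraries as neurons.

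Astrocytes are glial cells that take up glutamate and potassium released by neurons, move water at the vascular end-feet and couple to one another through gap junctions. They also make cholesterol and apolipoproteins, secrete proteins of the matrix and of synapses, and supply neurons with lactate. In the hindbrain they descend from radial glia of the ventricular zone, and around birth they still divide locally before they take on their adult set of transporters, channels and receptors. The PN are the main relay from the cerebral cortex to the cerebellum, and their neurons arise from the Atoh1-expressing rhombic lip.

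The 2 P5 libraries held 15821 and 9586 barcodes with 236964126 and 160411671 UMIs, and the 3 E18.5 control libraries held 9587 to 11200 barcodes with 130697047 to 155934672 UMIs. Pairs of these 5 libraries shared 20 to 51 barcodes, at most 0.480% of the smaller library. A median P5 astrocyte held 9558 UMIs and 3351 genes in library 1 and 13216 UMIs and 3770 genes in library 2, with 4.72% and 4.76% mt- UMIs. The E18.5 cells in the gate had medians of 14615, 11199 and 17382 UMIs. Because the gate counts raw UMIs, deeper cells pass its lower limits more easily, and the medians here are of cells that had already passed. Intervals below cover counting error only.

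Astrocytes made up 5.35% of the kept cells of P5 library 1 (exact binomial 95% confidence interval (CI) 4.95 to 5.79) and 5.15% of those of library 2 (4.63 to 5.71), a mean of 5.25% ± 0.148 (SD, n = 2). The intervals of both libraries overlapped. With mt- UMIs under 5% the shares were 3.49% in library 1 and 3.29% in library 2. In the 3 E18.5 control libraries 17, 17 and 33 cells passed, which were 0.211%, 0.180% and 0.361% of kept cells, and at E14.5 only 6 cells of 6 libraries did. These shares are not compared by a test, since the dissection differed: E18.5 libraries came from whole hindbrain and P5 libraries from PN. What set the shares was not tested. The values that chose the cells were spread widely within the gate. Aqp4 ran from 5 to 184 UMIs with a median of 28 in library 1, and from 5 to 223 with a median of 44.5 in library 2. Slc1a3 had medians of 19 and 26 UMIs, while Mapt had a median of 1 in both and was at 0 in 24.5% and 41.8% of the cells. At the edge of the gate, 12 and 2 cells held exactly 5 Aqp4 UMIs, and 12 and 3 cells that met all other conditions held 4. The Mapt limit turned away the most cells, 118 and 48 that met every other condition, of which 4 and 4 held 7 Mapt UMIs.

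The gate's cells held the astrocyte markers it did not use. Aldoc, the brain aldolase, was at 1215 and 1544 CPM (UMIs of the gene per 1000000 UMIs summed over the cells of a library) and had a UMI in 96.7% and 98.2% of the cells. Gja1, the gap junction protein connexin 43, was at 992 and 931 CPM, and Aldh1l1, the folate enzyme used as a pan-astrocyte marker, at 297 and 313 CPM. In neurons of the same libraries Aldoc was at 4.92 and 3.73 CPM, Gja1 at 2.04 and 0.984, and Aldh1l1 at 1.34 and 0.783. Cells with any Aqp4 UMI had been left out of these neurons, and the effect on these values was not tested. The markers thus bore out the cell type name over the summed cells, while some clusters were led by genes of other cell types.

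Markers of other cells were present at low but unequal levels. The 12 neuronal markers summed to 2166 and 1481 CPM in astrocytes, against 13758 and 14481 in neurons and 940 and 396 in microglia, with none at 0 in either library. The contrast with neurons was partly fixed by the choice of cells, since Mapt is in the gate and Mapt and Snap25 chose the neurons. The neuronal gene Stmn2 was at 387 and 254 CPM in astrocytes, near its 373 and 186 in microglia. The 7 oligodendrocyte markers summed to 1067 and 390 CPM in astrocytes and to 905 and 664 in microglia. The 10 microglial markers summed to 52.8 and 37.6 CPM in astrocytes against 20824 and 21320 in microglia, a contrast that C1qa and C1qb, which chose both classes, partly fixed. Tmem119, which chose neither, was at 0.161 and 0 CPM. The plot of markers by class shows both libraries for each class.

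**Figure D1:**
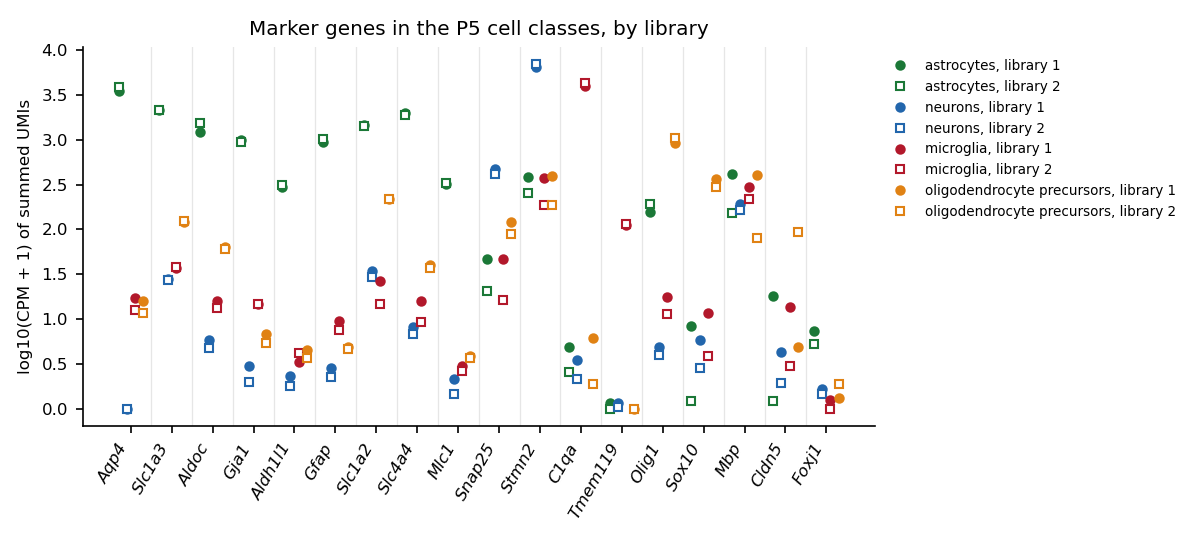
Level of 18 marker genes in 4 classes of P5 cells, as log10(CPM + 1) of the UMIs summed over each class, filled points for library 1 and open points for library 2. The astrocyte genes at the left lie near or above 2.5 in astrocytes, where Aldh1l1 was at 297 and 313 CPM, and lower in the other classes, while Mbp and Stmn2 lie at similar levels in astrocytes and microglia.

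Astrocytes were then set beside 3 other P5 classes. The comparison classes were neurons (Mapt at least 10 and Snap25 at least 3 UMIs, 4357 and 2884 cells), microglia (C1qa and C1qb at least 10, 799 and 533 cells) and oligodendrocyte precursors (Pdgfra at least 3 and Olig1 at least 2, 371 and 113 cells). Of 2944 genes at 50 CPM or more in astrocytes of both libraries, 186 (6.32%) were at 4-fold or more over each of the 3 classes in both libraries. These values are a description with no test, because the gate chose the cells by genes that differ between the same classes. The 3 classes also had upper limits on Aqp4 UMIs, and cells with any Aqp4 UMI were left out of the neurons. How far these limits raised the ratios, those of other astrocyte genes included, was not tested. Aqp4, the water channel and part of the gate, led with a smallest ratio of 200 over the 6 comparisons. The lead of Aqp4 was thus partly fixed by the choice of cells on both sides. Among the genes the gate did not use, Sparcl1, a secreted synapse organiser, came first at 7623 and 6446 CPM, with a smallest ratio of 107. Gfap, the astrocytic intermediate filament, was at 933 and 1010 CPM against at most 8.44 in any other class. Mlc1, a membrane protein of end-feet, was at 319 and 329 CPM with a smallest ratio of 81.7.

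Several further genes are known transporters or secreted proteins. Slc4a4, the sodium bicarbonate cotransporter, reached 1983 and 1891 CPM, and Slc6a11, a GABA transporter, 1137 and 1015 CPM. Agt, the angiotensinogen precursor, was at 403 and 439 CPM, and Tnc, the matrix protein tenascin C, at 377 and 346 CPM. Pla2g7, a secreted phospholipase, was at 1567 and 1439 CPM, and the microsomal glutathione transferase Mgst1 at 395 and 463 CPM. The remaining genes by the same ranking were Fmo1, Emp2, Tst, Bmpr1b, Myoc, Kcne1l, Gm11627 and Cybrd1, with smallest ratios from 37.9 for Cybrd1 to 64.2 for Fmo1, beside Gja1 at 63.2 and Aldh1l1 at 65.4. Myoc, the glaucoma gene myocilin, was at 105 and 84.7 CPM, but its UMIs came from few cells.

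The reporter that the sort selected for was low in these cells. WPRE, an element of the reporter transcript that was added to the reference, was at 93.7 CPM in astrocytes of library 1 (Poisson 95% CI 86.3 to 102) and 63.6 CPM in library 2 (56.4 to 71.5), a mean of 78.7 ± 21.3 (SD, n = 2). Neurons of the same libraries were at 382 and 420 CPM. Microglia, a cell type that does not arise from the neural tube, were at 89.3 CPM (82.9 to 96.1) and 40.9 CPM (35.9 to 46.4). In library 1 the astrocyte and microglial intervals overlapped, and in library 2 the astrocytes lay above the microglia.

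Counted per cell, a WPRE UMI was found in 52.1% and 49.7% of astrocytes, 51.2% and 30.4% of microglia and 98.7% and 99.1% of neurons, at median depths of 9558 and 13216, 9857 and 10315, and 27830 and 31905 UMIs. After each cell was thinned to 5000 UMIs the shares were 31.9% and 25.8% in astrocytes, 30.3% and 14.49% in microglia and 83.7% and 85.9% in neurons, over 524 and 314 astrocytes, 690 and 483 microglia and 4349 and 2880 neurons deep enough. The astrocyte share was close to the microglial one in library 1 and above it in library 2. Oligodendrocyte precursors were at 152 and 34.2 CPM, with thinned shares of 45.1% and 16.7%, above the astrocytes in library 1 and under them in library 2. Atoh1 itself had 3 UMIs in all astrocytes of library 1 (0.483 CPM) and 0 in library 2, where 3 counts would be 0.672 CPM and the Poisson 95% upper limit is 0.826 CPM. Whether the labeled neurons' RNA in the suspension carried the WPRE UMIs of astrocytes was not tested. The reporter plot gives the values with their intervals.

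**Figure D2:**
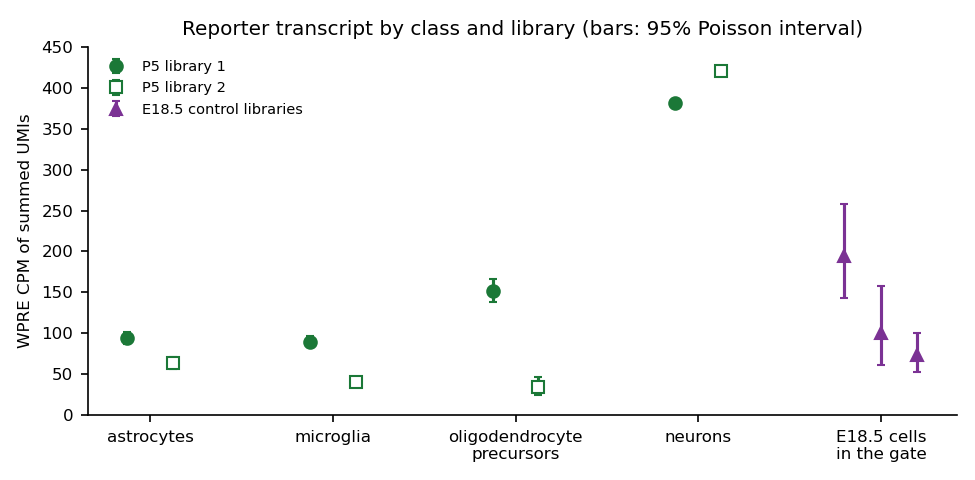
WPRE CPM of summed UMIs in 4 classes of P5 cells and in E18.5 control cells that met the same gate, 1 point per library with Poisson 95% intervals. The P5 astrocyte points, 93.7 and 63.6, lie at or above the microglial points, 89.3 and 40.9, and under the neurons at 382 and 420.

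To ask how astrocytes of the hindbrain change around birth, UMIs of the gate's cells were summed per library and the 2 P5 sums were compared with the 3 E18.5 control sums by the edgeR quasi-likelihood test. A gene was called at a Benjamini-Hochberg adjusted p under 0.05 and an absolute log2 change over 0.25, and the 6 genes of the gate were left out. Of 10049 genes tested, 590 (5.87%) were higher and 361 (3.59%) lower at P5, and 912 of these 951 called genes had libraries that did not overlap between stages, as did 38.2% of all genes tested. Age goes with dissection here (PN against whole hindbrain) and with pooling of pups, so age, region and their mixture cannot be told apart. The E18.5 sums also rest on 67 cells and 188455 to 532464 UMIs per library, against 6208214 and 4464879 UMIs at P5, so genes low at E18.5 are measured coarsely. The highest 7.5% of doublet scores took in 0 of 17, 4 of 17 and 2 of 33 E18.5 cells, against 13 of 605 and 8 of 340 P5 cells. With such cells removed, 515 genes were higher and 312 lower. A gene was tested where at least 10% of the cells of either stage held a UMI, so 1475 genes entered only through E18.5 and 264 only through P5, the stage where each is then likely to be higher. Of the 8310 genes that reached 10% in both stages 500 were higher and 185 lower. Counts of a list among its members that reached 10% in both stages, made after the values were seen, are given beside it where they differ.

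The split of calls depends on the scaling. The 10 most abundant genes took 17.6% and 16.6% of UMIs at P5 and 12.01% to 13.4% at E18.5, and the trimmed mean of M values (TMM) normalisation of edgeR moved the median log2 change of all genes by 0.21 against plain library totals. With library totals only, 374 genes were higher and 723 lower, so that 34.1% of calls were higher, against 62.0% with TMM. CPM values below are on library totals and log2 changes are on the TMM scale, where the median over all genes tested was -0.01. Counts of a list that shifted on library totals are given beside it. The plot of named genes shows each library.

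**Figure D3:**
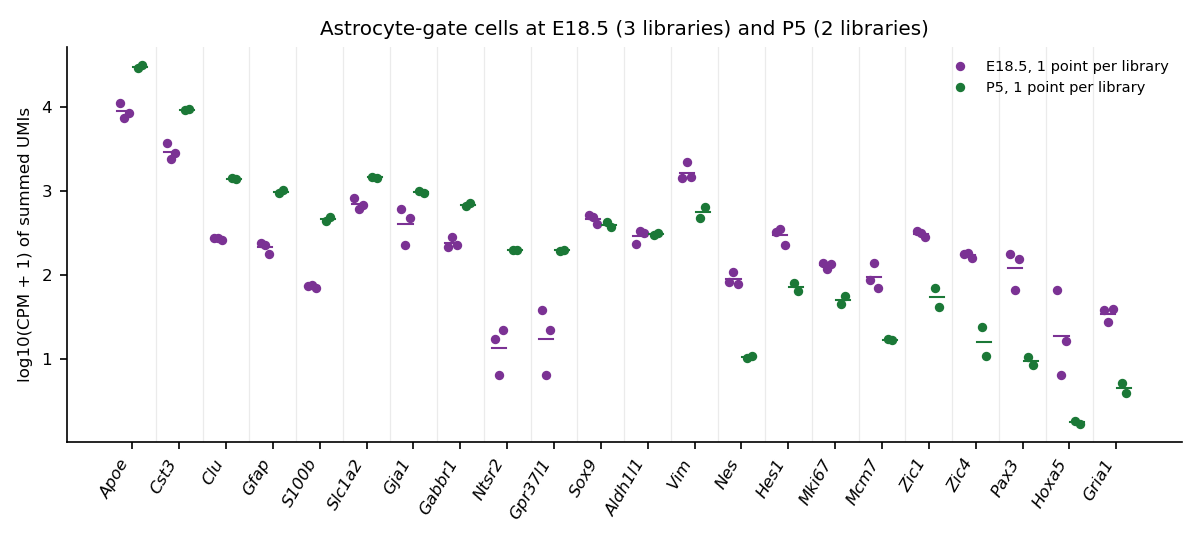
Level of 22 genes in cells that met the astrocyte gate, as log10(CPM + 1) of summed UMIs, 1 point per library (3 at E18.5, 2 at P5), with a line at the mean of the points. Apoe to Gpr37l1 are higher at P5, Sox9 and Aldh1l1 lie at similar levels, and Vim to Gria1 are lower. The called genes show no overlap of libraries, as did 38.2% of all genes tested. Nes, Mki67, Pax3, Hoxa5 and Gria1 passed the filter on low counts only through E18.5, where they were high.

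Genes of lipid synthesis and transport were higher at P5 in most cases. Of 16 genes of cholesterol synthesis and lipid carriers, all tested, 10 were higher and 0 lower at P5 (8 and 0 on library totals), with a median log2 change of 0.83. Clu, the apolipoprotein clusterin, gave the smallest p of all genes. It was at 271, 271 and 255 CPM in the E18.5 libraries and at 1416 and 1359.9 CPM in the P5 libraries. The change was log2 change 2.61, SE 0.20, adjusted p = 5.72e-08. Apoe, the main lipid carrier of the brain, was the most abundant protein-coding gene of P5 astrocytes. It rose from 11079, 7349 and 8442 CPM to 28444 and 31306 CPM (log2 change 1.97, SE 0.20, adjusted p = 9.77e-07). The enzymes of cholesterol synthesis rose less. Cyp51, the lanosterol demethylase, went from 271, 233 and 309.9 to 589 and 606 CPM (log2 change 1.33, SE 0.20, adjusted p = 1.24e-04). Also called higher were Hmgcs1, Idi1, Msmo1, Fdft1, the sterol exporter Abca1 and the desaturase Scd2, with log2 changes from 0.79 for Fdft1 to 0.93 for Hmgcs1. For Msmo1 the libraries of the stages overlapped.

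Genes of glutamate and ion handling rose in part. Of 7 genes of glutamate handling 6 were tested (Slc1a3 belongs to the gate), and 3 were higher and 0 lower. Slc1a2, the transporter GLT-1 that clears most synaptic glutamate in the mature brain, was at 805, 599.6 and 665 CPM at E18.5 and 1459 and 1404 CPM at P5 (log2 change 1.27, SE 0.19, adjusted p = 1.23e-04). Slc7a11, the cystine-glutamate exchanger, had the largest change of the list, from 101, 42.5 and 65.7 to 266 and 226 CPM (log2 change 2.02, SE 0.25, adjusted p = 1.08e-05). Both had P5 libraries above all E18.5 libraries. Glud1, glutamate dehydrogenase, rose by a log2 change of 0.93, but was at -0.15 with the gate applied after thinning. Glul, glutamine synthetase, did not pass the test, at 522, 478 and 394 CPM and 382 and 385 CPM (log2 change -0.04, adjusted p = 0.939 by edgeR).

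Of 8 genes of potassium, water and acid-base transport 7 were tested, and 4 were higher and 0 lower (3 and 0 on library totals). Car2, carbonic anhydrase, rose from 182, 74.3 and 233 to 462 and 527 CPM (log2 change 1.71, SE 0.26, adjusted p = 1.52e-04). Slc4a4 and the sodium pump subunit Atp1b2 rose by log2 changes of 0.91 and 0.82. Of the 3 gap junction genes tested all were higher (2 by DESeq2, which did not call Gjb6), but only Gja1 reached 10% of cells in both stages. Gja1 went from 603, 223 and 466 to 992 and 931 CPM (log2 change 1.35, SE 0.25, adjusted p = 9.86e-04). Gjc3 had 1 UMI in all E18.5 cells and 549 UMIs at P5, a ratio of 49.8 with a counting interval from 8.90 to 1970. Gjb6, connexin 30, had 1 and 117 UMIs, a ratio of 10.6 (1.87 to 423). Both connexins were thus at the edge of detection at E18.5 and present at P5, Gjc3 at 50.7 and 52.4 CPM and Gjb6 at 11.4 and 10.3 CPM.

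Among 10 genes of glycolysis, lactate and glycogen, 8 were tested, of which 3 were higher and 1 lower (1 and 1 on library totals and by DESeq2). The lactate dehydrogenase subunits moved in opposite directions. Ldhb went from 328, 255 and 316 CPM to 406 and 564 CPM (log2 change 0.91, SE 0.21, adjusted p = 0.00819), and Ldha fell from 522, 520.0 and 531 CPM to 194 and 210.3 CPM (log2 change -1.16, SE 0.20, adjusted p = 4.16e-04). Every P5 library lay above the E18.5 libraries for Ldhb and under them for Ldha. Slc16a1, the lactate transporter MCT1, and Aldoc were higher by log2 changes of 1.06 and 0.66. The call for Aldoc was lost on library totals and by DESeq2, and its log2 change was -0.21 with the gate applied after thinning. As 1 gene of the list stayed called higher under each, the call for Ldhb or Slc16a1 was lost there too.

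Of 15 genes of secreted synapse and matrix factors 11 were tested, and 5 were higher and 0 lower (5 and 1 on library totals, 4 and 0 of the 10 that reached 10% in both stages). Sparc, a matrix protein that counteracts synapse formation, rose from 655, 913 and 565 to 1785 and 2393 CPM (log2 change 1.81, SE 0.22, adjusted p = 8.98e-06), and its relative Sparcl1, which promotes it, from 5683, 3778 and 4318 to 7623 and 6446 CPM (log2 change 0.84, SE 0.20, adjusted p = 0.00839). The proteoglycan genes Bcan and Ptprz1 rose by log2 changes of 1.13 and 1.13. The glypican Gpc5, at 12.1, 5.31 and 5.63 CPM at E18.5 and 40.3 and 29.3 CPM at P5, entered the test only through P5, where it was high. None of the 4 tested phagocytosis receptors was called, with 0 genes at an unadjusted p under 0.05 and 0 called by DESeq2.

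Both subunits of the GABA-B receptor were higher at P5. Of 26 signal receptors 25 were tested, and 7 were higher and 1 lower (6 and 1 on library totals, 7 and 0 of the 23 that reached 10% in both stages). Gabbr1, the first GABA-B subunit, rose from 214, 281 and 223 to 650.1 and 705 CPM (log2 change 1.74, SE 0.20, adjusted p = 6.65e-06), and Gabbr2, the other subunit, from 138, 196 and 105 to 365 and 356 CPM (log2 change 1.60, SE 0.23, adjusted p = 5.19e-05). The other genes called higher were the neurotrophin receptor Ntrk2, the metabotropic glutamate receptor Grm3, Notch3, the endothelin receptor Ednrb and the adrenergic receptor Adra2a, with log2 changes from 0.86 to 1.37. Gria1, an AMPA receptor subunit, was at 36.4, 26.5 and 37.6 CPM at E18.5 and 4.19 and 2.91 CPM at P5, and it entered the test only through E18.5, where it was high.

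Of 18 genes listed as mature astrocyte genes, all tested, 13 were higher and 0 lower (9 and 0 on library totals and by DESeq2). Of the 15 that reached 10% of cells in both stages 10 were higher, with a median log2 change of 0.79. S100b, a calcium-binding protein of differentiated astrocytes, rose from 72.8, 74.3 and 67.6 CPM to 430.2 and 481 CPM (log2 change 2.90, SE 0.23, adjusted p = 6.44e-08), and the spread within each stage was narrow against this gap. Cst3, the secreted protease inhibitor cystatin C, rose from 3709, 2393 and 2770.1 to 9106 and 9304 CPM (log2 change 1.86, SE 0.20, adjusted p = 2.29e-06). Agt rose from 158, 143 and 35.7 to 403 and 439 CPM (log2 change 2.33, SE 0.32, adjusted p = 3.98e-05), and the E18.5 libraries differed among themselves. The 3 others, Slco1c1, Aldh1a1 and Paqr6, entered the test only through P5, where they were high. Slco1c1, a thyroid hormone transporter, had 1 UMI at E18.5 and 231 at P5, a ratio of 21.0 (3.72 to 831). Aldh1a1, a retinaldehyde dehydrogenase, was at 4.04, 15.9 and 5.63 CPM at E18.5 and 42.8 and 28.0 CPM at P5. The amino acid transporter Slc7a10 and Slc6a11 were also called higher, at log2 changes of 1.02 and 0.90. Aldh1l1 was not called, at 231, 329 and 308 CPM at E18.5 and 297 and 313 CPM at P5 (log2 change 0.30, adjusted p = 0.419 by edgeR).

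The radial glial genes did not move as a group. Of 12 genes of radial glia and intermediate filaments, all tested, 4 were higher and 3 lower (4 and 2 of the 11 that reached 10% in both stages). Vim, vimentin, a filament gene of immature glia, fell from 1428, 2159.7 and 1431 CPM to 472 and 641 CPM (log2 change -1.35, SE 0.23, adjusted p = 3.82e-04). Nes, nestin, another, was at 80.9, 106 and 77.0 CPM at E18.5 and 9.18 and 9.63 CPM at P5, and it entered the test only through E18.5, where it was high. Gfap, the filament of mature astrocytes, rose from 235, 223 and 177 CPM to 933 and 1010.1 CPM (log2 change 2.45, SE 0.21, adjusted p = 8.49e-08). In each of these filament genes the libraries of the stages did not overlap. A Gfap UMI was found in 31.3% of the E18.5 cells and 35.1% of the P5 cells, and at P5 the sum was carried by a few clusters, described with the clusters. Hopx fell by a log2 change of -1.11, with 211 and 371 CPM in the P5 libraries, and Ednrb, Ttyh1 and Pla2g7 rose by 1.17, 0.74 and 0.83. Fabp7, the brain fatty acid binding protein, was among the 3 most abundant genes in all 5 libraries and was not called (15743, 15160.1 and 22191 CPM at E18.5, 19551 and 27522 CPM at P5, log2 change 0.64, adjusted p = 0.0711 by edgeR).

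Of 21 glial fate transcription factors 20 were tested, and 3 were higher and 2 lower, with a median log2 change of -0.01 (3 higher and 4 lower on library totals). The Notch targets Hes1 and Hes5 moved in opposite directions. Hes1 fell from 319.6, 345 and 225 CPM to 77.6 and 63.4 CPM (log2 change -1.81, SE 0.21, adjusted p = 7.09e-06), while Hes5 rose from 752, 616 and 479 to 990.0 and 1173 CPM (log2 change 1.06, SE 0.21, adjusted p = 0.00165). Id2 and Rorb rose by log2 changes of 1.31 and 1.20, and Pax6 fell by 0.90 on the log2 scale. Sox9, the factor that specifies glia, was at 518, 478 and 394 CPM at E18.5 and 421 and 364 CPM at P5 and did not pass the test (log2 change -0.0034, adjusted p = 0.996 by edgeR). Sox2 did not pass either, at 595, 700.4 and 548 and 456 and 460.0 CPM.

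**Figure D4:**
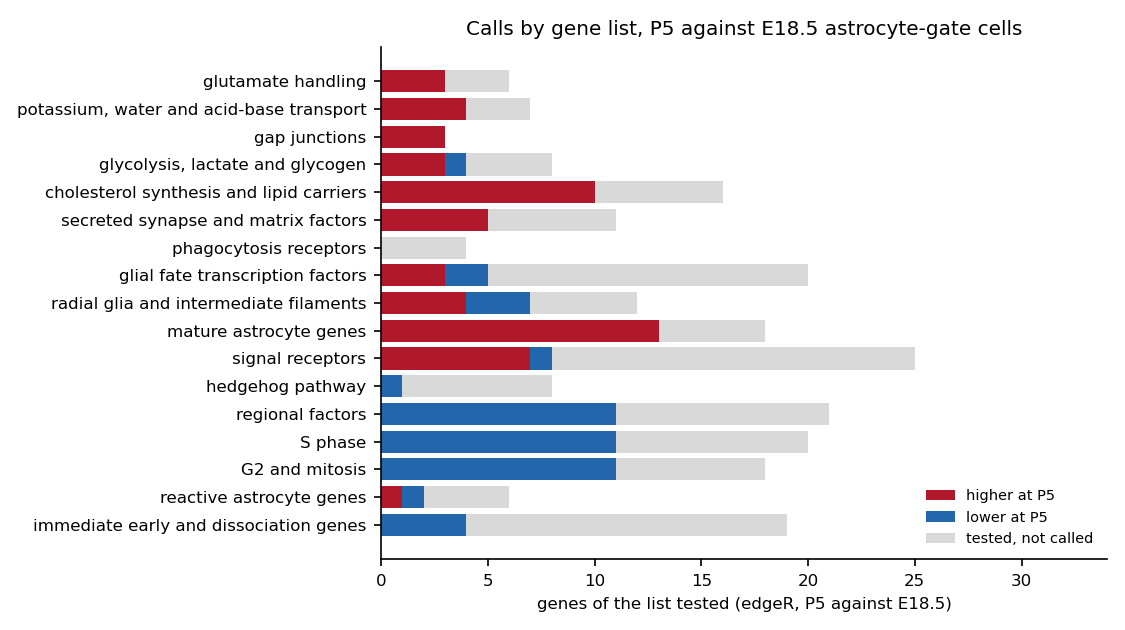
Number of genes tested in each of 17 gene lists, split into genes called higher at P5, called lower at P5 and not called, by edgeR in the comparison of 2 P5 with 3 E18.5 libraries. The bar of cholesterol synthesis and lipid carriers holds 10 genes called higher, and the bars of regional factors, S phase and G2 and mitosis each hold 11 genes called lower and 0 called higher, many of which passed the filter on low counts only through E18.5.

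The genes of cell division that were called were lower at P5. Of 20 S phase genes, all tested, 11 were lower and 0 higher (14 and 0 on library totals, 9 and 0 by DESeq2), and of 18 tested of 20 genes of G2 and mitosis 11 were lower and 0 higher (13 and 0 on library totals, 7 and 0 by DESeq2). All 18 of the latter and 11 of the former entered the test only through E18.5, so these counts had to lean that way, and of the 9 S phase genes that reached 10% of cells in both stages 4 were lower. Mcm7, a helicase subunit that licenses replication origins, fell from 84.9, 138 and 67.6 CPM to 15.9 and 15.7 CPM (log2 change -2.28, SE 0.29, adjusted p = 1.38e-05), and Mcm3 and Mcm6 fell with log2 changes of -2.24 and -2.52. Mcm5, with a log2 change of -2.55, entered only through E18.5. E18.5 library 2 was the highest of the E18.5 libraries for each of these 4 Mcm genes. Mki67, the proliferation marker, was at 138, 117 and 133 CPM at E18.5 and 43.7 and 54.0 CPM at P5. Top2a, Ccna2 and Cenpf had log2 changes of -0.93, -1.90 and -1.41.

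Division had not ceased at P5. Cells with a UMI of at least 2 of the 5 genes Mki67, Top2a, Cdk1, Cenpf and Birc5 made up 47 of 605 astrocytes in library 1 (7.77%, exact 95% CI 5.76 to 10.2) and 36 of 340 in library 2 (10.6%, 7.53 to 14.4). At E18.5 the counts were 5 of 17, 6 of 17 and 11 of 33. After thinning to 5000 UMIs the P5 shares were 6.11% and 7.64%, and the E18.5 shares were 23.5%, 23.1% and 16.7% of 17, 13 and 30 cells. Each E18.5 share lay above both P5 shares, and the exact intervals of the E18.5 libraries were wide, reaching from 5.04% to 53.8% for library 2 after thinning.

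Regional transcription factors were called lower or not called. Of 29 factors that mark positions along the neural tube 21 were tested, and 11 were lower and 0 higher at P5 (12 and 0 on library totals, 11 and 0 by DESeq2). Of the 21, 9 entered the test only through E18.5, where they were high, and of the 12 that reached 10% of cells in both stages Zic1, Zic4 and Zic5 were lower, with a median log2 change of -0.26 over the 12. The other called genes entered only through E18.5, among them Zic2, Hoxa3, Hoxa5, Hoxb4, Hoxb5, Gbx2 and Otx2. The called genes included Zic genes, which mark the dorsal neural tube, the Hox genes Hoxa3, Hoxa5, Hoxb4 and Hoxb5 of the caudal hindbrain, and Gbx2 and Otx2 of the borders of the midbrain and hindbrain. Zic1 fell from 328, 313 and 276 CPM to 68.9 and 39.9 CPM (log2 change -2.25, SE 0.23, adjusted p = 8.64e-07). Zic4, whose gene overlaps Zic1 on the other strand of chromosome 9 (GRCm38, 91362413 to 91389348, against 91358058 to 91365810 for Zic1), fell from 174, 180.4 and 158 CPM to 22.6 and 9.63 CPM (log2 change -3.14, SE 0.28, adjusted p = 1.44e-07). Zic2 and Zic5 were lower with log2 changes of -2.02 and -2.15, and Zic5 was at 0.69 with the gate applied after thinning.

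The Hox genes called lower were already low at E18.5. Hoxa5 was at 64.7, 5.31 and 15.0 CPM in the E18.5 libraries and at 0.805 and 0.672 CPM in the P5 libraries. Hoxb4 was at 24.3, 0 and 28.2 CPM at E18.5 and at 0.805 and 0.672 CPM at P5, and its libraries overlapped through the E18.5 library at 0. Hoxa3 and Hoxb5 were at 2.58 and 2.02 and 1.45 and 1.57 CPM at P5. Otx2 was at 24.3, 42.5 and 20.7 CPM at E18.5 and at 1.29 and 4.48 CPM at P5, and Gbx2 at 32.4, 10.6 and 39.4 and 2.74 and 4.70 CPM. In the PN libraries all 4 Hox genes were thus below 3 CPM. These factors differ with the position of a cell, and the dissected region differed between the stages, so the effect of age cannot be told apart from that of region.

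The genes ranked by size of change, among those at 50 CPM or more in the higher stage with separate libraries, added further names. Beside Mbp and Gjc3, the 10 largest rises included those of the neurotensin receptor Ntsr2 (16.2, 5.31 and 20.7 CPM at E18.5, 196 and 194 CPM at P5, log2 change 3.79, SE 0.31, adjusted p = 6.44e-08) and the astrocytic receptor Gpr37l1 (36.4, 5.31 and 20.7 CPM, 188 and 197 CPM, log2 change 3.36, SE 0.31, adjusted p = 2.24e-07). Bgn, Igsf1, Egfl6, S100b and Lix1 were among the 10 too, with log2 changes from 2.89 for Lix1 to 3.42 for Bgn. Bgn encodes the matrix proteoglycan biglycan. The largest falls were those of Sned1, Gdf10, Pax3, Cp, Igfbpl1, Draxin, Nppc, Tm4sf1, Rmst and Zic4, from -3.14 for Zic4 to -4.71 for Sned1 on the log2 scale. Of the 10 falls 9 entered the test only through E18.5, and of the 10 rises 5 only through P5. Pax3, a factor of the dorsal neural tube, was at 174, 63.7 and 150.2 CPM at E18.5 and 9.50 and 7.39 CPM at P5. Its log2 change was -3.77 (SE 0.31), and it entered the test only through E18.5, where it was high. Gdf10 encodes a ligand of the transforming growth factor β family made by Bergmann glia and their progenitors. It was at 113, 175 and 75.1 CPM at E18.5 and 4.35 and 6.94 CPM at P5 (log2 change -4.10, SE 0.35). Gdf10 too entered the test only through E18.5, where it was high.

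The remaining lists held few calls. Of 8 tested of 11 hedgehog genes only Cdon, a co-receptor, was called, with 17 UMIs at E18.5 and 3 at P5, a ratio of 62.5 toward E18.5 (18.1 to 333), and it entered the test only through E18.5. Of 6 tested of 16 reactive astrocyte genes 1 was higher and 1 lower (0 and 1 by DESeq2, 0 and 0 of the 2 that reached 10% of cells in both stages). Serpina3n, a protease inhibitor, was at 24.3, 0 and 1.88 CPM at E18.5 and 32.5 and 57.3 CPM at P5 (log2 change 2.81, SE 0.59). It entered the test only through P5, where it was high, and was the call lost by DESeq2. Cp, ceruloplasmin, fell by 3.63 on the log2 scale and entered only through E18.5, where it was high. Within P5 astrocytes Cp was at 207 CPM in the cluster led by cilium genes and at most 6.03 CPM in the others, and Tm4sf1 at 361 and at most 3.70 CPM, while the ependymal markers tested were lower at P5 too. Their part in these falls was not tested. Of 19 tested of 21 immediate early and dissociation genes 4 were lower and 0 higher (9 and 0 on library totals, 3 and 0 of the 16 that reached 10% in both stages). Jun fell from 643, 435 and 539 CPM to 200.1 and 239 CPM (log2 change -1.08, SE 0.21, adjusted p = 0.0017), and Dusp1 and Hspa8 fell with log2 changes of -1.74 and -0.62. The fourth, Atf3, at -1.57, entered the test only through E18.5. Fos was at 1193, 918 and 1132 and 555 and 774 CPM and did not pass the test (log2 change -0.48, adjusted p = 0.177 by edgeR). WPRE, at 194, 101 and 73.2 CPM in the E18.5 cells, was not called (log2 change -0.34, adjusted p = 0.513 by edgeR).

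Markers of other cell types moved with the stage too. Of 8 tested neuronal markers 3 were higher at P5 and 0 lower, among them Stmn2 and Tubb3 with log2 changes of 1.57 and 1.21, and the sum of the list was 801 to 977 CPM at E18.5 against 2166 and 1481 at P5. All 3 tested oligodendrocyte markers were higher (2 on library totals and by DESeq2), and 2 of them entered the test only through P5. Mbp, myelin basic protein, had 3 UMIs at E18.5 and 3246 at P5, a ratio of 98.1 (33.6 to 476). Without the 3 smallest clusters, Mbp was at 161 and 89.5 CPM at P5, under the 294 and 215 CPM of microglia. It stayed called then, with a log2 change of 5.52, and Cnp was no longer called (0.48, against 0.74). The 3 tested ependymal markers Foxj1, Rsph1 and Dynlrb2, all of which entered the test only through E18.5, were lower at P5, with log2 changes of -2.05, -2.18 and -2.03, and the list summed to 47.0 to 159 CPM at E18.5 against 23.4 and 9.41 at P5. Of 2 tested meningeal genes Dcn was lower (log2 change -1.98, with libraries that overlapped), and of 3 tested precursor genes Lhfpl3 was higher by 2.49, each entered through its higher stage only. The part of such cells and of free RNA in the differences between stages was not tested.

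P5 astrocytes varied among themselves in a few genes above the rest. In cells thinned to 5000 UMIs, 3543 genes had a mean of at least 0.2 UMI per cell in both libraries, and 116 of them had a variance over 2 times the mean (Fano factor) in both. The median Fano factor was 1.11 and 1.10, and 40 of the 50 genes with the largest values were shared between the libraries. These are descriptions with no test. Malat1, a nuclear RNA, ranged most, with a median of 282.5 UMIs per thinned cell (10th to 90th percentile 94.3 to 742) in library 1 and 187.5 (60.3 to 452) in library 2. Gfap had a Fano factor of 32.4 and 33.8: it was at 0 UMIs in 69.3% and 71.7% of thinned cells and reached 78 and 70 UMIs. Myoc had 12.02 and 12.3 and was at 0 in 94.1% and 93.6% of cells. Mbp had 54.9 and 34.3, at 0 in 68.1% and 85.7%.

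Fabp7 was found in every thinned cell, and its median was 78.0 UMIs (32.0 to 177) in library 1 and 129 (58.3 to 216) in library 2, with Fano factors of 34.4 and 26.3. Apoe had medians of 142.5 and 151 UMIs and Fano factors of 26.4 and 25.7. Ptprz1, Cst3, Ptn and Gm42418 completed the 10 genes with the largest values, with Fano factors from 9.64 to 18.9. After thinning, Gfap was thus seen in a minority of the cells, whereas Apoe was seen in all of them and differed in amount.

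Leiden clustering of the 945 cells, without the gate's genes, gave 10 clusters. The clusters are described by their leading genes, and a gene that leads a cluster is no finding against the others. The largest, 127 and 101 cells, was led by the cell cycle gene Ccnd1 and by Rhcg and Fabp7, with Fabp7 at 31921 and 36942 CPM. A cluster of 111 and 52 cells was led by adhesion and receptor genes such as Cdh13, Ptprz1 (9831 and 10623 CPM) and Gabbr2 (596 and 651 CPM). A cluster of 69 and 44 cells had Gpr37l1 at 464 and 454 CPM, Igfbp2 at 1384 and 1645 CPM and Htra1 at 461 and 526 CPM.

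Gfap marked another pair of clusters. A cluster of 20 and 15 cells (3.31% and 4.41%) had Gfap at 10208 and 9971 CPM and Myoc at 1363 and 1208 CPM, and was led by Lpl, lipoprotein lipase, Cxcl1 and Atf3 as well. The same cells had Slc6a11 at 112 and 155 CPM and Ptprz1 at 831 and 775 CPM, against 1971 and 7120.0 CPM in the Gpr37l1 cluster over both libraries. A cluster of 90 and 71 cells was led by the meningeal gene Dcn, which had a UMI in 16.8% of its cells. The immediate early genes Socs3, Ier2 and Junb led it too, and Gfap was at 1814 and 1649.7 CPM. In the Ccnd1, Ptprz1 and Gpr37l1 clusters Gfap was at 51.4, 102 and 110.4 CPM. Fos was at 1237 CPM in the Socs3 cluster and 1904 CPM in the Myoc cluster, against 334 CPM in the Ccnd1 cluster. Immediate early genes respond to dissociation as well as to activity, and their part in these clusters was not tested.

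A cycling cluster of 40 and 30 cells (6.61% and 8.82%) was led by Hmmr and Top2a, with Top2a at 792 and 708 CPM and Mki67 at 522 and 508 CPM. A cluster of 118 and 17 cells, 19.5% of library 1 and 5.00% of library 2, was led by Gria2, Ryr2 and Meg3. It had the lowest median depth of all clusters, 6641 UMIs, and its Malat1 level was the highest of the 10 clusters, 142314 and 125355 CPM. Car10, Gpc5 and Csmd3 were leading genes of both this cluster and the Gpr37l1 cluster. Slc6a11 (2425 and 2290 CPM), Ptprz1 (11197 and 10377 CPM) and Slc1a2 (2456 and 2692 CPM) were higher here than in the Ccnd1 cluster. Fabp7 (8221 and 11038 CPM) and Aldh1l1 (213 and 248 CPM) were lower here than there. In this cluster Meg3 was at 1694 and 196 CPM and Snhg11 at 376 and 10.3 CPM, far lower in library 2. The neuronal markers were mixed. Stmn2 (476 and 567 CPM) and Tubb3 (197 and 237 CPM) were higher in library 2. Snap25 (62.8 and 41.3 CPM) and Syt1 (138 and 113 CPM) were lower there. Slc17a6, Slc17a7, Barhl1 and Gad2 were at 36.2, 13.3, 22.9 and 22.9 CPM in library 1. In library 2 they were at 20.6, 10.3, 10.3 and 0 CPM, on too few UMIs to give a direction. The library 2 values rest on 17 cells.

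The smallest clusters, 40 cells in all, were led by genes of other cell types. One of 15 and 5 cells was led by Mag and Mobp, with Mbp at 7077 and 7994 CPM, and the endothelial gene Cldn5, which ranked first, came from 5.00% of its cells, that is 1 cell of library 1. Another of 5 and 5 cells was led by Neurod1 and Eomes, factors of excitatory neurons, with Neurod1 at 712 and 1262 CPM. Of its 10 cells 7 were among the 7.5% of cells with the highest doublet scores. The third, 10 cells of library 1 alone, was led by cilium genes such as Pifo and Dynlrb2, with Foxj1 at 196 CPM and Aqp4 at 857 CPM. Without these clusters 575 and 330 astrocytes were left, and the test against E18.5 called 624 genes higher and 418 lower.

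**Figure D5:**
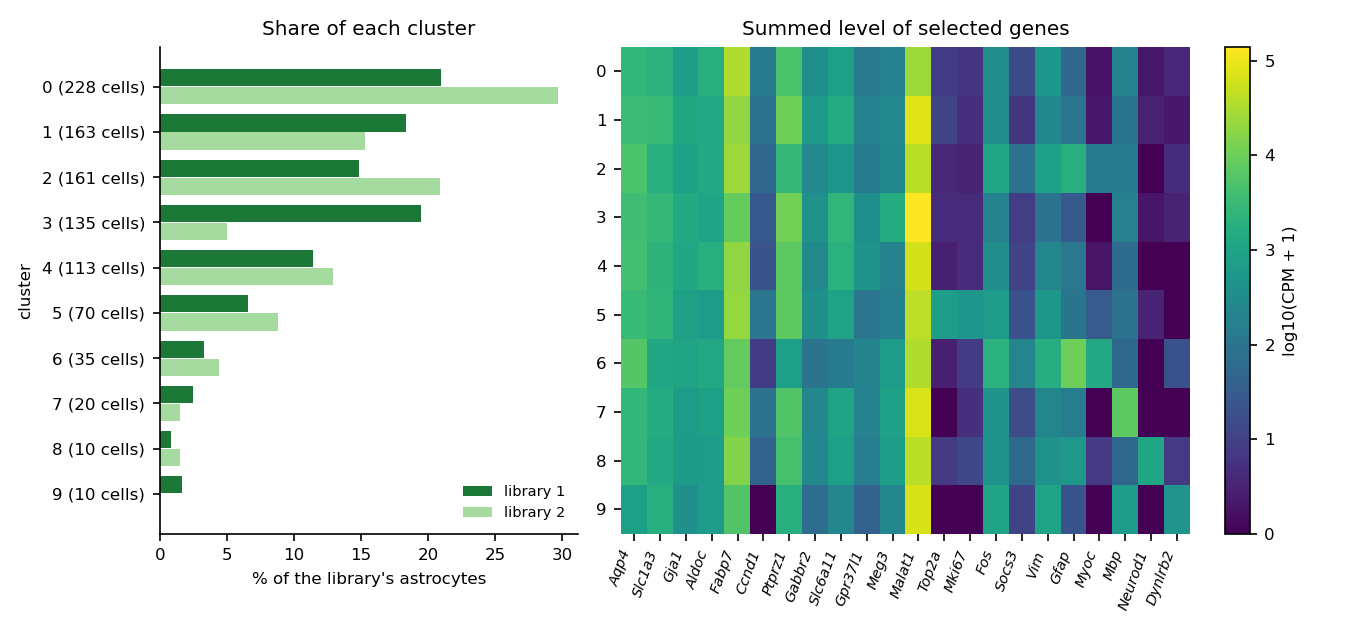
Left, share of each P5 library's astrocytes in each of 10 Leiden clusters. Right, log10(CPM + 1) of 22 genes summed over the cells of each cluster. Cluster 3 holds 19.5% of library 1 and 5.00% of library 2, cluster 6 has the highest Gfap and Myoc, and clusters 7, 8 and 9, with 20, 10 and 10 cells, are bright for Mbp, for Neurod1 and for Dynlrb2.

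Summed levels in the P5 libraries were close for most genes. Of 3389 genes at 50 CPM or more in either library, 19 (0.561%) differed by over 2-fold, 16 higher in library 1 and 3 in library 2, and the median absolute log2 ratio was 0.18. With 1 library against 1 there is no test. Among the genes higher in library 1 were Snhg11 (114 against 21.9 CPM), Mobp (105 against 24.9) and Syt1 (81.5 against 19.7), genes of neurons and of myelin. Without the 3 smallest clusters Mobp was at 24.5 against 14.6 CPM and Syt1 at 79.2 against 19.0 CPM. Higher in library 2 were Hist1h1b (55.5 against 21.4 CPM), Socs3 (60.7 against 24.0), Fosb (51.7 against 22.6), Hopx (371 against 211) and Serpina3n (57.3 against 32.5), a histone gene, immediate early genes and glial genes, the last 2 of them by less than 2-fold. The astrocytic markers Aqp4 (3480 and 3887 CPM) and Gja1 (992 and 931 CPM) differed little by comparison. Aqp4 chose the cells of both libraries, so its closeness was partly fixed by the gate, which did not use Gja1.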

How the data were processed

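Both stages were sequenced as single-cell 3′ libraries, and the authors deposited UMI counts per gene and cell barcode, made with Cell Ranger (5.0.1 for the libraries compared here) on mm10 with WPRE added (31054 genes). Cells with at least 1000 genes and under 10% mt- UMIs were kept. The study's methods name a 1% mt- limit with criteria that depend on age, and that limit was not applied here. Cells were assigned by the gate, with doublet-score removal (7.5% of cells) as an alternative. UMIs were summed per library and tested with edgeR 4.0.16 (quasi-likelihood, TMM) on genes with a UMI in 10% of the cells of either stage. DESeq2 1.42.0 was an alternative. P-values measure only the spread between these libraries. Clusters used scanpy 1.11.5 (1000 variable genes, 20 components, 15 neighbors, Leiden resolution 0.5). Thinning drew 5000 UMIs per cell. Named genes were members of the gene lists, the 10 largest rises and falls at 50 CPM or more, 20 genes beside other classes, 10 Fano factors and 5 genes per P5 library, and some of these are not reported here. The members and lists were chosen with earlier results of these data known. On simulated counts for this comparison over 10049 genes, the test recovered 24 of 50 genes raised 2-fold and 50 of 50 raised 4-fold, and 20 of 50 lowered to 0.5 and 37 of 50 lowered to 0.25 of their level.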

Additional observations from a re-analysis of the deposited data

Results flagged for a closer look

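In the Atoh1S193A/- mutant libraries at E18.5, which the comparisons above do not use, 24 cells of library 1 met the astrocyte rule, and their reporter and Atoh1 levels lay above those of the controls. WPRE was at 548 CPM (Poisson 95% CI 472 to 634), against 194, 101 and 73.2 CPM in the 3 E18.5 control libraries. Atoh1 was at 56.9 CPM (34.3 to 88.9) from 19 UMIs, against 0, 5.31 and 1.88 CPM. The other mutant libraries, with 5 and 54 such cells, had WPRE at 197 and 185 CPM and Atoh1 at 52.4 CPM (4 UMIs, all in 1 cell) and 1.42 CPM. The doublet scores marked 2 of the 24 cells, and 2 of 5 and 13 of 54 in the other mutant libraries, and the part of doublets or free RNA in these values was not tested.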

How the results depend on the processing

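The 590 higher and 361 lower genes became 352 and 254 with DESeq2, 275 and 180 with mt- UMIs under 5% (which also drops E18.5 library 1, at 8 cells), 170 and 141 with the gate applied after thinning (a single E18.5 library then had 10 or more cells, so the spread came from the P5 pair alone, and the lone library was assumed to vary alike), 1057 and 867 with Aqp4 and Slc1a3 at least 3, 885 and 705 with all E18.5 libraries of 10 or more cells, mutants included, and, in settings chosen after seeing the data, 374 and 723 without TMM. Leaving out 1 library gave 257 to 474 higher and 126 to 305 lower genes. It gave 339 and 235 without E18.5 library 3, 295 and 142 without P5 library 1, and 257 and 126 without P5 library 2. Without either P5 library the spread came from the E18.5 libraries alone, and the lone P5 library was assumed to vary like them. Replicate numbers did not pair the libraries (correlations from -0.07 to 0.07), and a fit with the replicate block called 369 and 217 genes. The share of astrocytes, 5.25%, was 3.39% with mt- UMIs under 5%, 5.71% with the lower Aqp4 and Slc1a3 limits, 4.28% with Mapt at most 2, 5.55% with doublets removed and 5.04% without the 3 smallest clusters. Of 108 named genes, 101 were called. Of these, 43 stayed called under every alternative that tested them, the fits with a lone library in 1 stage included. An alternative that did not test a gene was passed over for that gene, so not all 43 need have been tested throughout. Called genes outside the 43 included Apoe, Cyp51, Hes1, Hes5, Agt, Ptprz1, Sparcl1, Id2, Mki67 and Ldhb.

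Signs turned for 8 genes with the gate after thinning or for genes near 0, and the cause was not tested. After thinning, Glud1 was at -0.15, Aldoc -0.21, Fabp7 -0.175, Aldh1l1 -0.48, Zic5 0.69, Glul 0.26, Sox9 0.65 and WPRE 0.74 (log2). Glul was also at 0.024 with no filter, 0.13 with all E18.5 libraries, 0.25 with mt- UMIs under 5%, 0.002 without the small clusters, and -0.144 to 0.056 with a library left out. Sox9 was at 0.056 with no filter, 0.02 without the small clusters and -0.109 to 0.084 with a library left out. WPRE was at 0.16 with mt- UMIs under 5% and between -0.709 and 0.145 with a library left out, the latter without E18.5 library 1. Genes low at E18.5 are limited by the 67 cells measured there.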
